A study of Mus musculus with 13 samples.

Results

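Ribosomal protein genes were followed across 13 RNA-seq libraries of the mouse submandibular gland, a major salivary gland. Members were the entries of the authors' normalised table whose symbol begins with Rpl, Rps, Mrpl or Mrps followed by a number, Rpsa and the Rplp stalk genes included. Names containing -ps (named pseudogenes), the Rps6k kinases and Rpl7l genes were left out. This gave 165 of 17957 genes. Of these, 77 carry symbols of cytosolic ribosomal proteins (46 of the large subunit, 31 of the small). Another 77 carry symbols of mitochondrial ribosomal proteins (48 large, 29 small), and 10 are paralogues or retrocopies. The remaining gene, Rps19bp1, encodes a binding protein that is not itself a subunit. Classes followed the symbols, and whether every other product, such as that of Mrps36, is a ribosome subunit was not checked. By annotation, the paralogues or retrocopies include 3 processed and 2 transcribed processed pseudogenes.

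All mice were of strain CH3 as the labels spell it, were 1 year old, and their glands were collected 300 days after treatment. The 3 NonIR libraries came from glands that were not irradiated. The 5 IR_GFP libraries came from irradiated glands injected 10 days before irradiation with AAV2-GFP, an adeno-associated virus vector carrying green fluorescent protein. The 5 IR_NTN libraries came from irradiated glands injected on the same schedule with Cere-120, an AAV2 vector carrying neurturin, a growth factor for parasympathetic neurons. The sources used here do not say whether NonIR glands received any vector, so effects of irradiation and of vector cannot be told apart against NonIR. Nothing in the labels says that replicates are different animals, and p-values therefore measure only the spread between these libraries, which may be technical. Both comparisons with NonIR also share its 3 libraries.

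Libraries held 9724301 to 16771003 reads on genes. Markers of acinar cells, which make saliva proteins, and of granular convoluted tubules, a duct segment typical of rodent submandibular gland, were the most abundant of the 13 marker lists in every library. Their sums ranged from 122852 to 396283 CPM (read counts scaled to a common library size, here by TMM) for the acinar list and from 10221 to 58321 CPM for the tubule list, with both minima in IR_GFP 1. Skeletal muscle markers summed to 190.1 CPM in IR_GFP 2 and to between 2.53 and 4.45 CPM in the other 12 libraries.

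Each ribosome joins a small subunit, which decodes messenger RNA, to a large subunit, which forms peptide bonds. Cytosolic ribosomes make nearly all cellular protein, including the enzymes and mucins of saliva. Mitochondrial ribosomes make a few membrane proteins of the respiratory chain, and their protein subunits are encoded in the nucleus and imported. Messages of cytosolic ribosomal proteins characteristically start with a C followed by a run of pyrimidines, the 5′ terminal oligopyrimidine motif through which mTOR signalling and Larp1 govern their translation.

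Promoters of 132 of the 165 members were found in the RefSeq table of GRCm38.p6, 150 promoters in all. The sequences below run from 50 bases before the annotated start to 10 bases from it on, and capitals mark a C within 5 bases of the start with at least 4 further C or T. The genes were chosen, with their spread known, to show that such a start occurred with wide and with narrow spread between libraries. Rps27, Rps10 and Rpl15 have the run at the annotated start, with within-group SDs of 1.43, 0.883 and 0.215 on the log2 scale. Rps25, Rpl5 and Rplp0 have no run that begins within 5 bases of it, with SDs of 1.31, 0.191 and 0.197. The windows of Rps25 and Rpl5 hold such runs further upstream. Starts were taken from the annotation and not measured in the gland, so these genes cannot be said to lack the motif. Mrpl3 is a mitochondrial gene described further on. Over all cytosolic genes with both values, the median SD was 0.846 in 27 with a pyrimidine start and 0.818 in 29 without. This split is by the annotated start and need not separate messages with the motif from those without.
Rps27: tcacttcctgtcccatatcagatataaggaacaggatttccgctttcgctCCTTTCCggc
Rps10: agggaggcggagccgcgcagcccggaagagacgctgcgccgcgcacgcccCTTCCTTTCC
Rpl15: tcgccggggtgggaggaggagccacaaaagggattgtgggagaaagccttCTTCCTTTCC
Rps25: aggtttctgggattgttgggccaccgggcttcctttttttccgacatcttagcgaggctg
Rpl5: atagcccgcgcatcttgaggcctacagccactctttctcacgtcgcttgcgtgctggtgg
Rplp0: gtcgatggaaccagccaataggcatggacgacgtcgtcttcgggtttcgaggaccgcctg
Mrpl3: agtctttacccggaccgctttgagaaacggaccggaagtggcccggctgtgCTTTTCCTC
In GRCm38.p6, with strand, these windows are chr3:90213639-90213698 (minus) for Rps27, chr17:27635235-27635294 (minus) for Rps10, chr14:18270977-18271036 (minus) for Rpl15, chr9:44407664-44407723 (plus) for Rps25. Those of the others are chr5:107900478-107900537 (plus) for Rpl5, chr5:115559417-115559476 (plus) for Rplp0 and chr9:105053218-105053277 (plus) for Mrpl3.

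The pyrimidine start occurred in 43.3% of 67 promoters of cytosolic members, in 23.0% of 74 promoters of mitochondrial members and in 18.3% of all 32851 promoters. The ETS motif CCGGAAG, searched on both strands over 300 bases, was found in 37.3% of cytosolic and 33.8% of mitochondrial promoters and in 8.86% of all. YY1's AAGATGG was found in 16.4%, 17.6% and 6.34%, and NRF1's GCGCATG in 13.4%, 10.8% and 3.91%, in the same order. The SP1 box GGGCGG stood in 61.2%, 52.7% and 35.7%, and TATAAA in 8.96%, 6.76% and 13.6%. These shares describe the letters around annotated starts, and not binding or the starts used in the gland.

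In NonIR glands the members differed widely in level. Among cytosolic members that passed the filter on low counts, the highest level per kilobase of exon belonged to Rpl4, a large-subunit protein lining the exit tunnel (304 CPM per kb), then Rplp0, the base of the ribosomal stalk (295 CPM per kb), and Rpl8 (129 CPM per kb). The lowest were Rpl26 (1.68 CPM per kb), Rps15a (1.02 CPM per kb) and Rpl23a, near the tunnel exit (0.70 CPM per kb). Among mitochondrial members the range ran from Mrpl14 (70.0 CPM per kb), Mrpl28 (56.8 CPM per kb) and Mrpl34 (47.7 CPM per kb) down to Mrps34 (1.06 CPM per kb), Mrpl23 (0.593 CPM per kb) and Mrps30 (0.218 CPM per kb). The median level per kilobase was 10.9 CPM over the cytosolic and 11.3 CPM over the mitochondrial members. These lengths join all annotated exons of a gene, and the ranking depends on that choice. Per kilobase of the annotated principal transcript, Mrpl23 stood at 4.19 CPM, above Mrps34 at 2.38 CPM. Rps15a and Rpl23a stayed low, at 1.23 and 1.06 CPM. Many ribosomal protein genes have near-identical processed pseudogenes that can share their reads. Levels, and low ones such as that of Rpl23a above all, are therefore uncertain. Pseudogenes of these genes with -ps in the name held 4.48 to 6.46 reads for every 100 reads of members. Pseudogenes under other names were not counted, so this figure sets no limit on the reads shared.

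The members that did not pass the filter were Rpl24, Rpl3l and Rps3a2, so 162 were tested. Rpl24, a large-subunit gene, had 84 reads over all libraries. Rpl3l, the muscle form of Rpl3, had 59 reads, of which 15 lay in IR_GFP 2, the library with skeletal muscle markers.

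The cytosolic members moved together from library to library, inside every group. Their summed level was 3720.4, 4402 and 5365 CPM in NonIR 1 to 3. In IR_GFP 1 to 5 it was 2721, 5307, 8572, 5235 and 3478 CPM, and in IR_NTN 1 to 5 it was 5942, 3107, 4017, 4729.6 and 7171 CPM. IR_GFP 3 and IR_NTN 5 were highest and IR_GFP 1 and IR_NTN 2 lowest, so irradiated libraries lay on both sides of the NonIR libraries and the groups overlapped. Highest and lowest differed 3.15-fold within IR_GFP, 2.31-fold within IR_NTN and 1.44-fold within NonIR. These folds include the TMM factors given further on. As an unscaled share of all reads, cytosolic members differed less, with 0.386% in IR_GFP 1 and 0.657% in IR_GFP 3. They held 0.367% in IR_NTN 2 and 0.604% in IR_NTN 5.

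**Figure D1:**
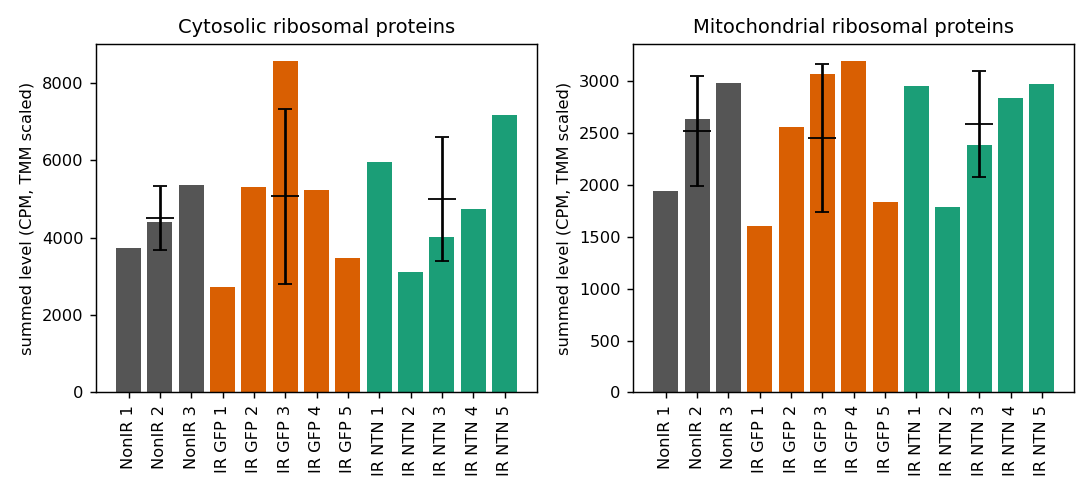
Summed level (CPM, TMM scaled) of 76 cytosolic (left) and 77 mitochondrial (right) ribosomal protein genes in each library, with NonIR in grey, IR_GFP in orange and IR_NTN in green; the horizontal tick and bar are each group's mean and SD. IR_GFP spans 2721 to 8572 CPM for the cytosolic genes, wider than any distance between group means.

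Most genes followed this order individually. Of the 76 cytosolic members, 54 had their lowest value in IR_GFP 1 and 11 in IR_NTN 2, while 56 had their highest in IR_GFP 3 and 17 in IR_NTN 5. All 76 exceeded their own mean over libraries in IR_GFP 3, against 1 in IR_GFP 1. Rps27, a small-subunit protein, shows the extreme: it measured 6.91, 10.7 and 12.7 CPM in NonIR, then 3.05, 11.7, 72.7, 14.8 and 6.84 CPM in IR_GFP, and 29.9, 4.87, 6.44, 10.4 and 57.9 CPM in IR_NTN, a 23.9-fold span. Rpl41, a very short large-subunit peptide, spanned 12.3-fold, from 32.6 CPM in IR_GFP 1 to 401 CPM in IR_GFP 3.

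With group means removed, the median correlation across the 13 libraries was 0.921 over the 2850 pairs of cytosolic members, 0.486 over pairs of mitochondrial members and 0.682 between the classes. Over all pairs of tested genes it was -0.0035. The points of each correlation share the libraries and their depth, and the values are descriptive. The median within-group SD on the log2 scale was 0.862 for cytosolic members, 0.380 for mitochondrial members and 0.320 for all genes.

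**Figure D2:**
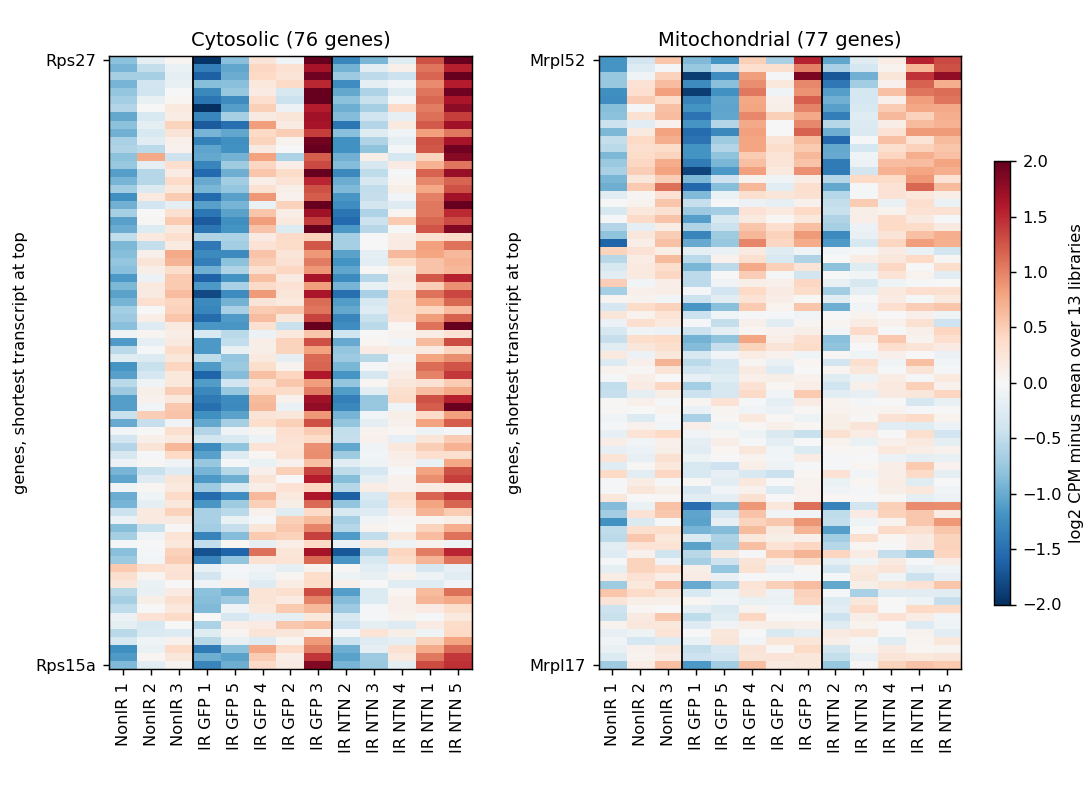
Log2 CPM of each ribosomal protein gene minus its mean over the 13 libraries (colour, limited at 2 either way), genes in rows from the shortest transcript at the top, libraries in columns ordered within each group by the cytosolic sum; black lines separate the groups. Columns such as IR_GFP 1 and IR_GFP 3 take 1 colour down nearly the whole cytosolic panel, and mainly the upper rows of the mitochondrial panel.

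Mitochondrial members followed the same libraries less widely. Their sums were 1943, 2637 and 2986 CPM in NonIR, 1605, 2563, 3071, 3199 and 1838 CPM in IR_GFP, and 2952, 1788, 2386, 2840.0 and 2978 CPM in IR_NTN. Here too IR_GFP 1 and IR_NTN 2 were the lowest of their groups. As an unscaled share of all reads, mitochondrial members held 0.228% in IR_GFP 1, 0.235% in IR_GFP 3 and 0.227% in IR_GFP 5. By that share IR_GFP 1 was not the lowest of its group. The spread was uneven between genes. Mrps21, a small-subunit protein, ran from 4.42 CPM in IR_GFP 1 to 62.6 CPM in IR_GFP 3, whereas Mrpl44, a large-subunit protein with a ribonuclease fold, stayed between 19.2 and 22.5 CPM in all 13 libraries.

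Shorter transcripts varied more, with exceptions. The median within-group SD was 0.962 for the 48 cytosolic members with a principal transcript under 1000 nt and 0.569 for the 28 longer ones. For mitochondrial members it was 0.884 for 24 short and 0.252 for 53 longer transcripts. Across cytosolic genes SD correlated with the logarithm of length at Pearson -0.46 and with length at Spearman -0.55. Across mitochondrial genes these values were -0.52 and -0.56. They describe genes that share the same libraries. The 4 cytosolic genes of smallest spread, Rpl3, Rpl5, Rpl4 and Rplp0, had SDs of 0.124, 0.191, 0.192 and 0.197 and transcripts of 1351 to 2045 nt. The cytosolic genes with the longest annotated principal transcripts did not follow this order. Rps15a (5179 nt), Rps20 (3706 nt) and Rpl18 (2989 nt) had SDs of 1.09, 1.01 and 0.924. Where several transcripts of a gene ranked equal, the longest was taken as principal. Which transcript was expressed was not measured, so these genes may be read here from shorter messages. Level differed too. Rpl3, Rpl5, Rpl4 and Rplp0 had mean log2 CPM of 8.27, 7.08, 9.21 and 8.71 over all libraries, and the short Rpl38 had 2.06 (SD 1.14). Rps14 and Rps25, at 7.05 and 6.93, nevertheless had SDs of 1.24 and 1.31. The part of level in the spread was not tested. Rpl3 and Rpl4 alone among the 76 correlated negatively with the rest of their class, at -0.19 and -0.0089. Together Rpl3, Rpl4 and Rplp0 made up 16.7% of the cytosolic sum in IR_NTN 5 and 44.6% in NonIR 1.

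**Figure D3:**
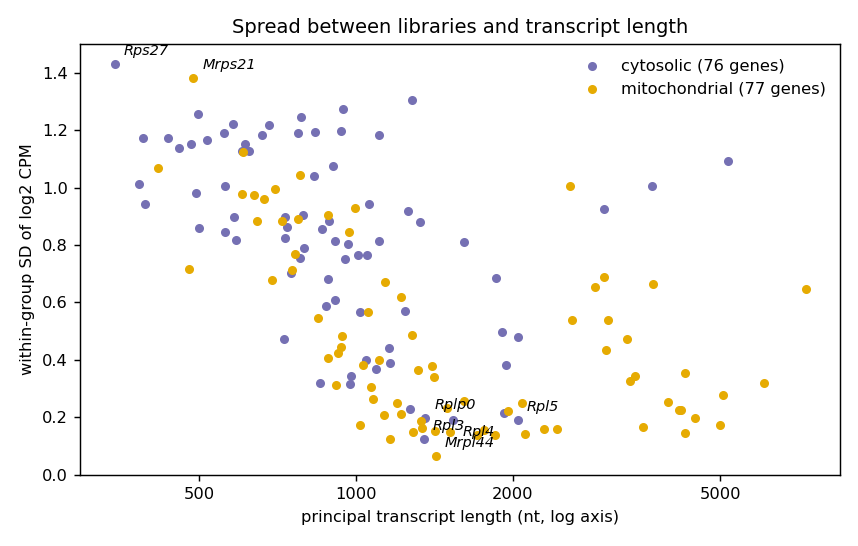
Within-group SD of log2 CPM against principal transcript length (nt, log axis) for 76 cytosolic (purple) and 77 mitochondrial (yellow) genes, 1 point per gene. Genes under 1000 nt sit mostly above an SD of 0.5, while Rpl3, Rpl4, Rpl5 and Rplp0 lie at or below 0.2. The 3 cytosolic genes with the longest annotated transcripts lie near 1, and the transcript expressed was not measured.

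Other measures also differed between the libraries of lowest and highest cytosolic sum. TMM factors, by which the CPM values given here are divided, were 1.42 in IR_GFP 1 and 1.18 in IR_NTN 2. In IR_GFP 3 and IR_NTN 5 they were 0.768 and 0.844. Genes other than members with transcripts of 500 to 750 nt also deviated, by a median of -0.71 in IR_GFP 1 and 0.56 in IR_GFP 3 (log2 scale). Cytosolic members of that length deviated by -1.33 and 1.36. Up to 500 nt the medians were -0.24 and 0.58 for other genes, and -1.41 and 1.66 for cytosolic members. Acinar markers summed to 122852 CPM in IR_GFP 1 and 396283 CPM in IR_GFP 3, but did not order all libraries as the cytosolic sums did. They summed to 353012 CPM in NonIR 2 and 323221 CPM in IR_NTN 5. Tubule markers summed to 10221 CPM in IR_GFP 1 and 29944 CPM in IR_GFP 3, against 58321 CPM in NonIR 2. The part of transcript length, library composition or cell content in the shared movement was not tested, and in bulk tissue fewer cells of a type and less RNA per cell cannot be told apart.

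In irradiated AAV2-GFP glands compared with NonIR, no ribosomal protein gene passed the threshold of 0.05 (edgeR quasi-likelihood, Benjamini-Hochberg over 14727 genes), where 0.034% of all genes did. At an unadjusted p under 0.05 there were 6 members of 162, a share below the 8.78% of all genes. DESeq2 called 1 member, Rpl3, of the 158 to which it gave an adjusted p, or 0.633% against 0.585% of all genes, and limma-voom called none. Groups did not overlap for 3 members, Rpl3, Rpl5 and Mrpl16, or 1.85% against 5.14% of all genes.

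Rpl3, which sits at the peptidyl transferase centre, had the lowest p. It measured 444, 389.9 and 371 CPM in NonIR and 279, 271, 323, 295 and 300.3 CPM in IR_GFP, so every IR_GFP library lay below every NonIR library. The log2 fold change was -0.45 (SE 0.12, edgeR adjusted p = 0.233; DESeq2 adjusted p = 0.0164). Rpl3 (ENSMUSG00000060036) lies on GRCm38 chromosome 15 from 80077791 to 80091868 on the minus strand.

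Rpl5, which carries 5S ribosomal RNA and, with Rpl11, can bind Mdm2, went the other way. It measured 93.5, 110.5 and 114 CPM in NonIR and 115, 159, 145, 163 and 141 CPM in IR_GFP. The lowest IR_GFP library was only just above the highest NonIR library, and the log2 fold change was 0.45 (SE 0.15, edgeR adjusted p = 0.375).

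Over the 76 cytosolic members the median log2 fold change was 0.40, with 64 above 0, where 52.7% of all genes were above 0 and their median was 0.02. Large-subunit members had a median of 0.28 and small-subunit members 0.43. This median rests on single libraries: it was -0.080 without IR_GFP 3, 0.153 without NonIR 1 and 0.599 without IR_GFP 1. It was 0.12 by limma-voom, which averages log values. The median SE of a cytosolic member was 0.59, larger than the median change. Among those with the lowest p on the higher side were Rpl12 of the stalk base (0.63, SE 0.39, edgeR adjusted p = 0.686) and Rpsa, a small-subunit protein also known as a laminin receptor (0.38, SE 0.24, edgeR adjusted p = 0.695).

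**Figure D4:**
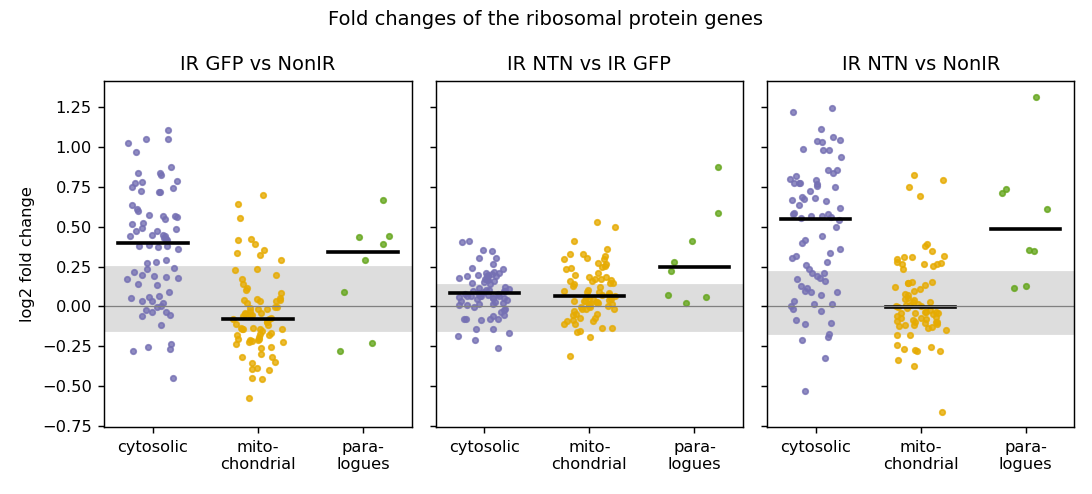
Fitted log2 fold change of each gene (point) by class in the 3 comparisons, with the class median (black bar) and the interquartile range of all 14727 genes (grey band). The cytosolic medians are 0.40, 0.08 and 0.55, those of the mitochondrial genes lie near 0, and no single gene passed the threshold.

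Mitochondrial members had a median of -0.08, with 25 of 77 above 0. The lowest p belonged to Mrps10, a small-subunit protein, at 18.3, 16.5 and 14.8 CPM in NonIR and 11.8, 11.3, 12.6, 15.2 and 12.2 CPM in IR_GFP (log2 fold change -0.39, SE 0.15, edgeR adjusted p = 0.476). IR_GFP 4 overlapped the NonIR range. Mrpl16, of the large subunit, did not overlap, at 20.7, 18.4 and 21.2 CPM against 13.1, 17.1, 16.7, 17.2 and 16.5 CPM (-0.32, SE 0.13, edgeR adjusted p = 0.491). Mrps2 and Mrpl19 also had an unadjusted p under 0.05, with log2 fold changes of -0.46 and 0.34 (edgeR adjusted p = 0.504 and 0.515).

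Between the irradiated groups, neurturin against GFP, values were closer still. No member passed the edgeR threshold, against 0.0204% of all genes, and 2 had an unadjusted p under 0.05, against 6.08% of all genes. DESeq2 and limma-voom called no member. Groups overlapped for every member tested, where 1.11% of all genes did not overlap. The median log2 fold change was 0.08 over cytosolic members, with 59 of 76 above 0, and 0.06 over mitochondrial members, with 55 of 77 above 0. Over all genes it was -0.01, with 47.3% above 0. The cytosolic median turned to -0.20 without IR_NTN 5 and reached 0.54 without IR_GFP 3.

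Mrpl15, of the large mitochondrial subunit, measured 48.5, 53.7, 52.6, 58.4 and 45.5 CPM in IR_GFP and 73.4, 48.3, 72.7, 55.3 and 73.0 CPM in IR_NTN. IR_NTN 1, 3 and 5 stood above all of IR_GFP and the others within its range (log2 fold change 0.32, SE 0.14, edgeR adjusted p = 0.784). Mrps2, of the small mitochondrial subunit, measured 6.67, 6.14, 8.52, 6.68 and 7.37 CPM against 10.8, 10.2, 7.98, 9.14 and 7.22 CPM (0.36, SE 0.16, edgeR adjusted p = 0.806). No cytosolic member had an unadjusted p under 0.05. Rpl3 had a log2 fold change of -0.08 (SE 0.10, edgeR adjusted p = 0.977) and Rpl5 of 0.05 (SE 0.12, edgeR adjusted p = 0.998).

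In irradiated neurturin glands compared with NonIR, again no member passed (edgeR, 0.0204% of all genes), and 6 had an unadjusted p under 0.05, or 3.70% against 7.97% of all genes. DESeq2 called Rpl3, 1 of the 51 members to which it gave an adjusted p, or 1.96% against 1.42% of all genes, and limma-voom called no member. Groups did not overlap for Rpl3, Rpl5, Mrpl3, Mrpl18, Mrpl37 and Mrpl48, which is 3.70% against 6.52% of all genes.

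Rpl3 measured 243, 313, 263, 294 and 276 CPM in IR_NTN, below all 3 NonIR libraries given above, with a log2 fold change of -0.53 (SE 0.12, edgeR adjusted p = 0.263; DESeq2 adjusted p = 0.00106). Its group means were 401.5 ± 37.8 CPM (SD, n = 3) in NonIR, 294 ± 20.3 CPM (SD, n = 5) in IR_GFP and 278 ± 26.9 CPM (SD, n = 5) in IR_NTN. Rpl5 measured 128, 133, 163, 147 and 179 CPM in IR_NTN, all above NonIR (0.50, SE 0.15, edgeR adjusted p = 0.405). Rplp0 measured 524, 433 and 510.0 CPM in NonIR and 391, 390.1, 378, 436 and 357 CPM in IR_NTN, where 1 IR_NTN library overlapped (-0.33, SE 0.15, edgeR adjusted p = 0.622).

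**Figure D5:**
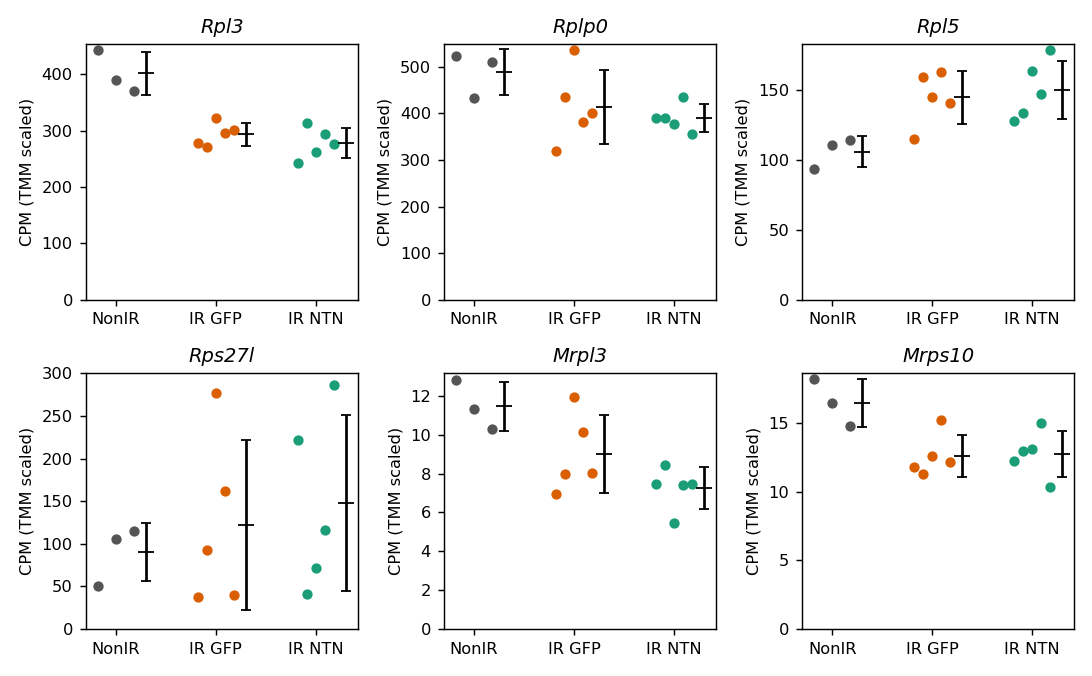
CPM (TMM scaled) of 6 genes in each library (points, NonIR grey, IR_GFP orange, IR_NTN green) with the group mean and SD beside them. Rpl3 is at most 323 CPM in the irradiated libraries and at least 371 CPM in NonIR, whereas Rps27l scatters from 37.9 to 287 CPM within the irradiated groups.

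The median over cytosolic members was 0.55, with 66 of 76 above 0, against 50.5% of all genes and a median of 0.00. It was 0.134 without IR_NTN 5, 0.275 without NonIR 1 and 0.774 without NonIR 3, and 0.36 by limma-voom. Mitochondrial members had a median of -0.0065, with 38 of 77 above 0. Mrpl3, a large-subunit protein beside the mitochondrial peptidyl transferase centre, had the lowest p of that class. It measured 12.8, 11.3 and 10.3 CPM in NonIR and 7.46, 8.45, 5.46, 7.40 and 7.46 CPM in IR_NTN, without overlap (-0.66, SE 0.19, edgeR adjusted p = 0.401). In IR_GFP it measured 6.96, 7.98, 11.96, 10.1 and 8.02 CPM, which spans the gap between those groups. Mrpl18, a large-subunit protein linked to 5S ribosomal RNA import, was on the higher side (0.35, SE 0.16, edgeR adjusted p = 0.622).

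The 8 paralogues or retrocopies tested followed the cytosolic pattern in the libraries of highest and lowest cytosolic sum. All 8 exceeded their own mean in IR_GFP 3 and in IR_NTN 5, and 0 did in IR_GFP 1. Other libraries were less alike. In IR_NTN 4, NonIR 2 and IR_GFP 2, 8, 6 and 3 of the 8 did, against 52, 28 and 62 of the 76 cytosolic members. Among the paralogues or retrocopies, Rpl37rt, Rpl6l, Rps3a3 and Rps4l are annotated as pseudogenes, which can share reads with their parent genes. Rps27l, a paralogue of Rps27 known as a p53 target, measured 50.9, 105 and 114 CPM in NonIR, 37.9, 92.3, 276, 162 and 40.2 CPM in IR_GFP and 222, 41.3, 72.0, 116 and 287 CPM in IR_NTN. The groups overlapped almost completely, with log2 fold changes of 0.43 (SE 0.76) in IR_GFP and 0.71 (SE 0.77) in IR_NTN against NonIR, and edgeR adjusted p-values of 0.925 and 0.865. Rpl22l1, the paralogue of Rpl22, measured 2.67, 5.15 and 7.11 CPM in NonIR, 1.09 to 9.54 CPM in IR_GFP and 2.11 to 13.2 CPM in IR_NTN. Its log2 fold changes against NonIR were -0.23 (SE 0.78) and 0.35 (SE 0.79), and they turned to 0.11 without NonIR 3 and to -0.091 without IR_NTN 5. That of Rps27l in IR_GFP turned to -0.12 without IR_GFP 3. Rpl39l was not among the members.

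Genes that work with these ribosomes were counted by lists. Of 43 cytosolic translation factors and subunits with other names, none passed the edgeR threshold in any comparison, and 4, 0 and 3 had an unadjusted p under 0.05 in IR_GFP against NonIR, IR_NTN against IR_GFP and IR_NTN against NonIR. Over all genes tested, 8.78%, 6.08% and 7.97% had such a p in these comparisons, and the counts of each list are to be read against those shares. Of 22 regulators of ribosomal protein message translation none passed, with 3, 1 and 4 at that unadjusted level. In IR_GFP against NonIR, Eif2ak2 had the lowest p of this list. Its log2 fold change was 0.55 (SE 0.16, edgeR adjusted p = 0.327). Larp1, which binds the pyrimidine start, had log2 fold changes of 0.46 (SE 0.17) in IR_GFP and 0.38 (SE 0.17) in IR_NTN against NonIR, with edgeR adjusted p-values of 0.462 and 0.622. Sesn2, a stress-induced inhibitor of mTORC1, had 0.76 (SE 0.24, edgeR adjusted p = 0.620) in IR_NTN against IR_GFP.

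Of 40 mitochondrial ribosome factors none passed either, with 5, 0 and 1 at an unadjusted p under 0.05, against the same 8.78%, 6.08% and 7.97% of all genes. Gfm1, the mitochondrial elongation factor G, had a log2 fold change of -0.38 (SE 0.13, edgeR adjusted p = 0.415) in IR_GFP against NonIR. None of the 9 tested transcripts of the mitochondrial genome passed. In the same comparison 8 of the 9 had a log2 fold change below 0, with a median of -0.14, where 52.7% of all genes were above 0. The exception was mt-Co1, a cytochrome c oxidase subunit, at 0.58 (SE 0.14, edgeR adjusted p = 0.232). The other comparisons did not repeat this. In IR_NTN against NonIR 5 of the 9 were below 0 (median -0.025), with 50.5% of all genes above 0. In IR_NTN against IR_GFP 3 of the 9 were below 0 (median 0.041), with 47.3% of all genes above 0.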

How the data were processed

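Submandibular gland total RNA was made, for 13 libraries, into cDNA with SMART-Seq v4 and into libraries with Nextera XT, which do not mark strand, per the labels' protocols. Per the submitters' processing notes, the authors used STAR 2.5.2a, GRCm38.p3 (mm10), limma, edgeR and DESeq2; for the counting step, the tool was not given in the sources used here. Sample labels were preferred to the design text of the series, which names other instruments and aligners. The authors deposited raw read counts per gene. The authors also deposited normalised signal, which on testing was each library's counts times 1 constant; it chose the members and served 2 alternatives. Rows that name no gene (24 rows, 45 reads) were left out.

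Of 48709 genes, filterByExpr by group retained 14727, which were scaled by TMM and tested by quasi-likelihood in edgeR 4.0.16 (R 4.3.3) over all 13 libraries, 1 mean per group, two-sided, adjusted by Benjamini-Hochberg over all genes tested. DESeq2 1.42.0 and limma 3.58.1 were alternatives. SEs were computed from each fold change and its F value. Levels per kilobase used the joined length of all annotated exons of a gene in GENCODE release M21. The principal transcript was the one ranked first by the APPRIS annotation, with ties going to protein-coding and then to longer transcripts. Log2 CPM used a prior count of 2. The test was checked on simulated counts of independent genes that all had the same dispersion. That check does not show the power of the test for members that vary widely and together. Named genes were the 4 lowest p-values per direction and class in each comparison, the extremes of level, and fixed paralogues; the text describes those its results turn on. Members and lists were chosen with earlier results of these data known. Depth limits genes of low count, and PCR reads without molecular identifiers are not independent molecules.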

Additional observations from a re-analysis of the deposited data

Results flagged for a closer look

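In 3 of 86 checks of a named gene within a group of 5, 1 library stood apart from the other 4; chance alone flags about 1 group in 20. Mrpl16 was 13.1 CPM in IR_GFP 1, with the others between 16.5 and 17.2 CPM. Mrps7, a small mitochondrial subunit protein, was 22.1 CPM in IR_NTN 1, with the others between 14.9 and 16.7 CPM. Rpl23a was 2.46 CPM in IR_NTN 5, with the others between 0.235 and 0.860 CPM, at a level where few reads were counted.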

How the results depend on the processing

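Results were recomputed under 29 alternatives (28 for Mrps30 in IR_GFP against NonIR and Rpl23a in IR_NTN against IR_GFP, which the stricter filter removed), of which those without libraries of TMM factor above 1.1 or below 0.85 and the length-adjusted offset were chosen after seeing the data. No ribosomal protein gene was called under any of them except by DESeq2, which called 1 (Rpl3) in each comparison with NonIR. The cause was not tested. Genes called over the whole table in IR_GFP against NonIR were 5, and 73 by DESeq2, 20 with no filter on low counts, 8 with the length-adjusted offset, 3 with the stricter filter, 1 without IR_GFP 1 and 2 and 1 without libraries of TMM factor above 1.1. They were 0 with upper-quartile factors, library size alone, limma-voom, deposited values with a pseudocount of 1, only the 2 groups, the replicate block and without libraries of TMM factor below 0.85, and 0 to 17 leaving out 1 replicate. In IR_NTN against IR_GFP, 3 became 37 by DESeq2, 10 with no filter, 1 without IR_GFP 1 and 2, and 0 with library size alone, limma-voom, only the 2 groups, the replicate block and either group of TMM factors left out (0 to 11 leaving out 1 replicate). In IR_NTN against NonIR, 3 became 36 by DESeq2, 5 without IR_GFP 1 and 2, 1 by limma-voom, 1 without libraries of TMM factor above 1.1, and 0 with library size alone, the replicate block and without TMM factors below 0.85 (0 to 4 leaving out 1 replicate). Library size alone moved the median of all genes to 0.125 in IR_GFP against NonIR and -0.096 in IR_NTN against IR_GFP.

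Leaving out 1 replicate, cytosolic medians ranged from -0.080 to 0.671, -0.20 to 0.54 and 0.134 to 0.774 in the 3 comparisons, and mitochondrial medians from -0.20 to 0.045, -0.014 to 0.21 and -0.14 to 0.14. The pooled within-group SD of the class mean was 0.789 and 0.390. Without libraries of TMM factor above 1.1 the cytosolic medians were 0.835, -0.095 and 0.746. Without libraries of TMM factor below 0.85 the cytosolic medians were -0.078, 0.23 and 0.135, and with the length-adjusted offset 0.275, 0.095 and 0.435. Signs turned for single genes. Rpl22l1 in IR_GFP against NonIR was 0.11 without NonIR 3, 0.18 without IR_GFP 1 and 2 and 0.28 without TMM factors above 1.1, and in IR_NTN against NonIR -0.091 without IR_NTN 5 and -0.089 without TMM factors below 0.85. Rps27l in IR_GFP against NonIR was -0.12 without IR_GFP 3 and -0.11 without TMM factors below 0.85. In IR_NTN against IR_GFP, Rpl23a, Rpl36a and Rps27l were -0.35, -0.096 and -0.11 without IR_NTN 5, and Rpl23a and Rps27l were -0.036 and -0.062 without IR_GFP 1 and 2.

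Leaving out 1 replicate, the ranges of these genes were -0.76 to 0.11 and -0.091 to 0.70 for Rpl22l1 in IR_GFP and IR_NTN against NonIR, and -0.12 to 0.64 for Rps27l in IR_GFP against NonIR. In IR_NTN against IR_GFP they were -0.35 to 0.90 for Rpl23a, -0.096 to 1.08 for Rpl36a and -0.11 to 0.83 for Rps27l.

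Replicate numbers recur between groups. Of 11 pairs of same-numbered libraries 3 correlated above 0.1 (range -0.43 to 0.28), and 1 of 13 libraries correlated best with its own number, so the numbers were not taken to pair libraries. With the replicate block, 0 genes were called in each comparison, cytosolic medians were 0.25, 0.20 and 0.46 and mitochondrial medians -0.14, 0.14 and -0.025.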
